A study of Mus musculus with 6 samples.

Results

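The genes described here are 10 core genes of the ATF4 and CHOP stress response, measured in the ear skin of mice with a keratin 14 driven deletion of Ufl1 and of their controls. They are Atf4, Ddit3 (which encodes CHOP), Trib3, Chac1, Atf3, Ppp1r15a (which encodes GADD34), Nupr1, Cebpb, Sesn2 and Ddit4, and they were chosen by gene symbol from the 54532 genes of the deposited table. The symbols matched 11 rows, because Ddit3 had a second row without a single count in any library, and this row was left out. All 10 genes had counts in every library and passed the filter on low counts, as did 17318 genes in all.

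Total RNA was sequenced in 6 libraries from ear skin of mice 3 months of age. The control group (3 libraries) came from mice with the genotypes Ufl1f/+ or Ufl1f/f and no Cre, and the labels do not say which control had which. The cKO group (3 libraries) came from Ufl1f/f KRT14Cre/+ mice, in which both Ufl1 alleles were floxed and 1 copy of a Cre transgene was present, driven by the keratin 14 promoter, whose activity is in the basal layer of the epidermis and its appendages and which marks the cells these give rise to. All 6 libraries therefore came from mice with at least 1 floxed allele. Since Cre was absent from the controls, a transgene effect and the loss of Ufl1 cannot be told apart. Whole ear skin also holds cells without Cre. Whether each library was made from its own animal is not stated, and the spread behind every p-value may thus be technical.

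The ligase encoded by Ufl1 couples the ubiquitin-like protein UFM1 to other proteins, many of them at the endoplasmic reticulum (ER). In the integrated stress response, kinases that sense unfolded ER proteins, amino acid shortage, haem shortage or viral RNA phosphorylate the translation factor eIF2, which lowers protein synthesis in general and favours translation of the Atf4 mRNA. ATF4 then activates genes of amino acid supply and the gene of CHOP, a transcription factor linked to cell death under lasting ER stress. Because ATF4 is controlled to a large part in translation, its mRNA level is not a readout of its protein. ER stress also acts through ATF6 and through IRE1 with XBP1, which raise ER chaperones.

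Total counts per library ranged from 17256339 to 20776539. The mitochondrial share of counts was highest in control 1 (4.59%, next to at most 2.97% elsewhere). Levels are given as CPM, counts scaled to a common library size with TMM factors, which correct for differences in library composition, and always in the order of replicates 1 to 3. Ufl1 itself had 57.9, 46.96 and 46.1 CPM in the control libraries against 34.9, 35.6 and 38.8 CPM in the cKO libraries. All cKO libraries were below all controls, with an edgeR adjusted p of 0.778. Marker genes of basal keratinocytes (7 of 7 detected), suprabasal keratinocytes (7 of 7) and fibroblasts (6 of 6) were present in every group, and no gene of the 13 marker lists was at 0 throughout.

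ATF4 and C/EBP proteins, alone or as pairs, bind a composite DNA element whose core letters TGATGNAA were searched on both strands of the RefSeq promoter windows (GRCm38.p6, 300 bases each, reaching 250 bases upstream of a gene's start). A window was available for each of the 10 genes. The core was found in 4 of them (Chac1, Atf3, Nupr1 and Trib3), and in 3.97% of all 32851 windows. These windows are shown because the 4 genes share the letters. Differences among the 4 genes in the comparison below were not tested. For Chac1, Atf3 and Nupr1 the 250 bases upstream of the start are given, and for Trib3, where the match lies 14 bases downstream of the start, a stretch of 30 bases. Each is written 5′ to 3′ on the gene's own strand, with the match in capitals. Each match is the reverse complement of the core. The RefSeq starts of Atf3 and Nupr1 lie inside the longer spans that the deposited table gives for these genes. For Trib3 the deposited span starts at 152344032 on the minus strand. By that start the Trib3 match lies upstream of the gene, not downstream of its start.
Chac1 (chr2:119350992-119351241, plus strand): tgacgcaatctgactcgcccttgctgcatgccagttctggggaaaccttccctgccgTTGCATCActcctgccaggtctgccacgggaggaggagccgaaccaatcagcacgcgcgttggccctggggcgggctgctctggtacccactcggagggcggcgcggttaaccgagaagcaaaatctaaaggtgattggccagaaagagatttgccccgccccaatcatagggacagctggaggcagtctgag
Atf3 (chr1:191183334-191183583, minus strand): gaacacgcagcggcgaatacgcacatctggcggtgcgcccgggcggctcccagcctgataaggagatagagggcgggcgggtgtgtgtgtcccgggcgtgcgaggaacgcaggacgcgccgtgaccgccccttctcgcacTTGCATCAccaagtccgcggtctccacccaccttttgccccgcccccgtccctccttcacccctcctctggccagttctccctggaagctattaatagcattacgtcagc
Nupr1 (chr7:126625471-126625720, minus strand): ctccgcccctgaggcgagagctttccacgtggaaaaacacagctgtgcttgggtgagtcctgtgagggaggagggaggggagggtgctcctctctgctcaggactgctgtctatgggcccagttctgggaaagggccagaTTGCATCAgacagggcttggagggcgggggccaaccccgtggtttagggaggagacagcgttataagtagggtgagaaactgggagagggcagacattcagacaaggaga
Trib3 (chr2:152344028-152344057, minus strand): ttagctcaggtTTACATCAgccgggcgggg

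The Chac1 match begins 193 bases upstream of the start, and those of Atf3 and Nupr1 each begin 110 bases upstream. Several further elements gave no match in the 10 windows: the core of the unfolded protein response element, TGACGTG (2.01% of all windows), the C/EBP palindrome TTGCGCAA (0.183%), and the ER stress response element (0.119%). The cAMP response element TGACGTCA, which shares only its first letters with TGACGTG, was found in 1 window, that of Ppp1r15a, 12 bases upstream of the start, and in 1.79% of all windows. A match of letters is a description of the window and does not show binding.

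In ear skin the 10 genes were expressed at very different levels. On the deposited FPKM scale, which divides by gene length and so allows genes to be compared, the mean over the 6 libraries was 89.4 for Cebpb, 76.0 for Atf4, 45.2 for Nupr1 and 31.6 for Ddit4. It was 10.5 for Ddit3, 9.66 for Ppp1r15a, 8.36 for Atf3, 7.998 for Sesn2, 6.72 for Trib3 and 2.75 for Chac1. The ranges of neighbours in this order overlapped between libraries except at 2 places. Ddit4 (22.9 to 46.2 FPKM) was above Ddit3 (8.94 to 11.3 FPKM) in every library, and Trib3 (5.94 to 7.73 FPKM) was above Chac1 (1.61 to 4.08 FPKM) in every library.

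The comparison of cKO and control ears asked whether the stress response genes differ when Ufl1 is deleted in keratin 14 lineage cells. None of the 10 genes passed the two-sided edgeR quasi-likelihood test at an adjusted p under 0.05, where 0.0173% of the 17318 genes tested passed. None had an unadjusted p under 0.05 either, next to 5.33% of all genes. The smallest adjusted p was 0.970 (Chac1). DESeq2 and limma-voom also called 0 of the 10, and neither gave any of them an unadjusted p under 0.05. DESeq2 called 0.525% and limma-voom 0% of all genes. Log2 fold changes lay between -0.28 and 0.66, with a median of 0.16 next to -0.01 over all genes tested. Of the 10, 9 were positive, where 47.8% of all genes were, and 8 were positive when libraries were scaled by total count alone, as Trib3 then changed sign. The 95% interval of the fold change ended below 2-fold for 7 genes and reached past it for Chac1, Nupr1 and Cebpb, and that of Atf3 extended down to 0.362-fold. In bulk tissue, a change in the number of expressing cells and a change in RNA per cell cannot be told apart.

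**Figure D1:**
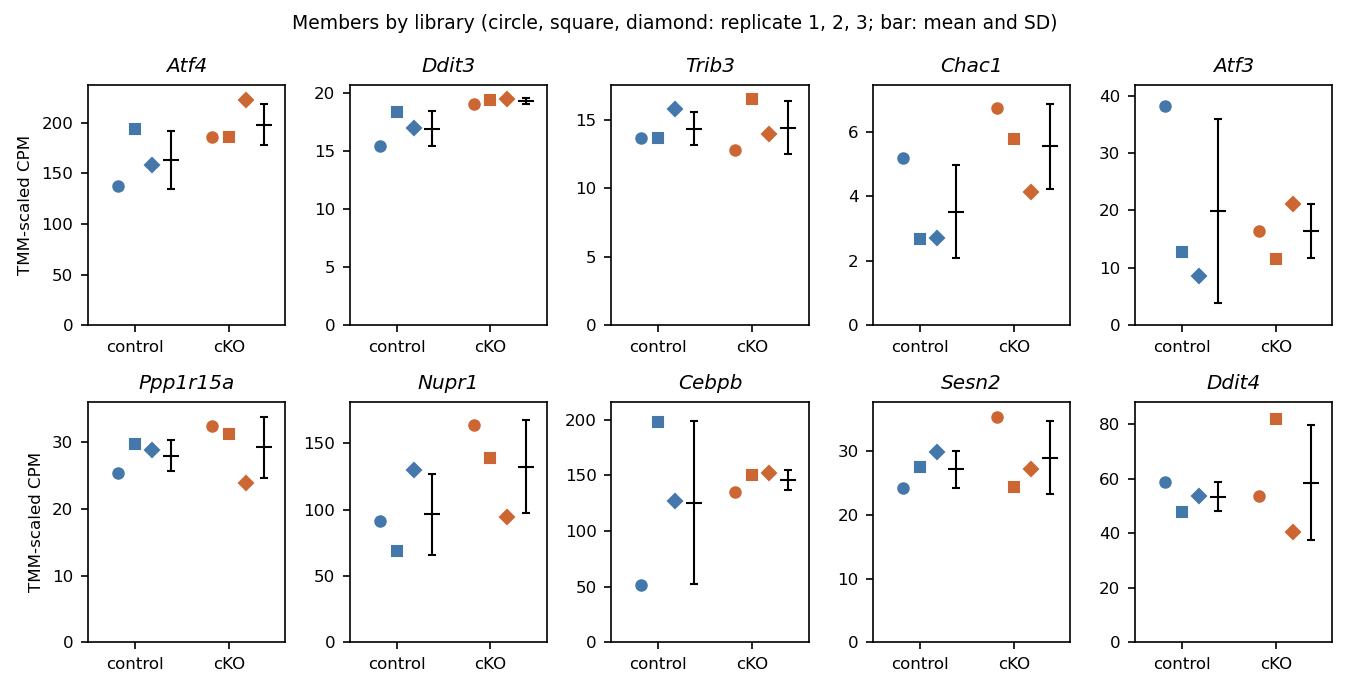
TMM-scaled CPM of each of the 10 genes (vertical axes, from 0) in the 3 control and 3 cKO libraries, with replicates as circle, square and diamond and the mean and SD as a bar. The groups overlap for every gene except Ddit3, and control 1 stands apart from the other controls for Atf3 (38.2 CPM) and Cebpb (51.7 CPM).

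The 2 transcription factors that name the response were examined first. Atf4 (ENSMUSG00000042406, chromosome 15, 80255184 to 80257541, mm10) had 137, 194 and 158 CPM in the control libraries against 186, 186 and 222 CPM in the cKO libraries. Control 2 lay above cKO 1 and cKO 2, so the groups overlapped. The fold change was 1.22 (95% interval 0.933 to 1.58), a log2 fold change of 0.28 (SE 0.17), with an edgeR adjusted p of 0.981. Without control 2 the log2 fold change was 0.42 (unadjusted p = 0.0192, adjusted p = 0.651 in edgeR), and it was 0.17 without control 1 and 0.19 without cKO 3 (unadjusted p = 0.306 and 0.354 in edgeR).

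Ddit3 (ENSMUSG00000025408, chromosome 10, 127290774 to 127296288) had the narrowest spread of the 10 genes, with 15.4, 18.4 and 16.96 CPM in the control libraries against 19.004, 19.4 and 19.4 CPM in the cKO libraries. It was the only member whose groups did not overlap, where 10.5% of all genes did not. The group means were 16.9 ± 1.48 and 19.3 ± 0.232 CPM (SD, n = 3 each), and control 2 was the control closest to the cKO range. The fold change was 1.14 (95% interval 0.898 to 1.45), with an edgeR adjusted p of 0.997, so a doubling lay outside the interval. The log2 fold change was 0.19, and it was 0.12 without control 1. The groups of Ddit3 overlapped when libraries were scaled by total count alone. The gene shares 68 bases with Mars on the opposite strand, and whether the counting used strand is not known here. It also shares 2925 bases on its own strand with the second Ddit3 row, which had no counts. Whether reads in that stretch were counted is not known, so the CPM and FPKM of Ddit3 may rest on part of the gene.

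Genes that act downstream of ATF4 and CHOP came next. Chac1 (chromosome 2, 119351229 to 119354381), which encodes an enzyme that degrades glutathione, was the member with the lowest level and the highest fold change. It had 5.19, 2.68 and 2.69 CPM in the control libraries against 6.74, 5.77 and 4.14 CPM in the cKO libraries. Control 1 lay within the cKO range, and the other controls lay below all cKO libraries. The fold change was 1.58 (95% interval 0.908 to 2.75; log2 0.66, SE 0.35), with an edgeR adjusted p of 0.970. Its counts were between 52 and 121 per library, the fewest of the 10 genes. Without control 1 the log2 fold change was 1.04 (unadjusted p = 0.0115, adjusted p = 0.425 in edgeR), and without control 2, control 3 or cKO 1 it was 0.50.

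Trib3 (chromosome 2, 152337422 to 152344032), a pseudokinase induced by CHOP that restrains ATF4, had 13.7, 13.7 and 15.8 CPM in the control libraries against 12.8, 16.5 and 13.9 CPM in the cKO libraries. The lowest and the highest value were both from cKO libraries. The group means were 14.4 ± 1.23 and 14.4 ± 1.94 CPM (SD, n = 3 each). Its fold change was 1.003 (95% interval 0.756 to 1.33), with an edgeR adjusted p of 0.998.

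Ppp1r15a (chromosome 7, 45522916 to 45526268) encodes the phosphatase subunit that returns eIF2 to its active state. It had 25.4, 29.7 and 28.9 CPM in the control libraries against 32.5, 31.3 and 23.9 CPM in the cKO libraries. cKO 3 lay below every control and the other cKO libraries above them. Its fold change was 1.04 (95% interval 0.805 to 1.36).

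Nupr1 (chromosome 7, 126623249 to 126630861), which encodes a small stress-induced chromatin protein, had 91.3, 69.2 and 130 CPM in the control libraries against 164, 139 and 94.5 CPM in the cKO libraries. Control 3 lay above cKO 3, and control 1 just below it. The fold change was 1.37 (95% interval 0.889 to 2.11; log2 0.45, SE 0.27), with an edgeR adjusted p of 0.981. The log2 value was 0.65 without cKO 3 and 0.72 without control 3, with unadjusted p of 0.0435 and 0.0310 in edgeR, and 0.26 without control 2.

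**Figure D2:**
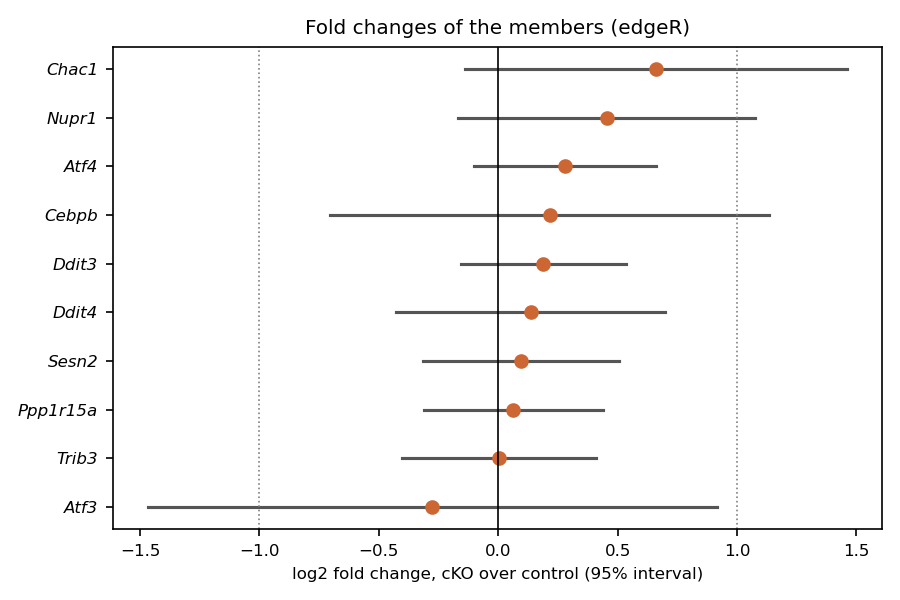
Log2 fold changes of cKO over control for the 10 genes from edgeR (points) with 95% intervals (lines), ordered by value, with a line at 0 and dotted lines at a doubling and a halving. Every interval includes 0, and they are widest for Atf3, Cebpb and Chac1.

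Atf3 and Cebpb, bZIP transcription factors that respond to many kinds of stress and to inflammation, had the widest spread between libraries. Atf3 (chromosome 1, 191170296 to 191218039) had 38.2, 12.8 and 8.60 CPM in the control libraries against 16.4, 11.6 and 21.1 CPM in the cKO libraries. Control 1 lay above all other libraries, and control 3 below them. In edgeR the log2 fold change was -0.28 (SE 0.52; adjusted p = 0.997), and it was 0.61 without control 1 (unadjusted p = 0.0876 in edgeR). Limma-voom gave 0.03. Of the 12 immediate early genes, which are induced within minutes of cell stimulation, some were highest in control 1 and others lowest. Fos was at 278 CPM there and at 80.4 to 213 CPM in the other libraries, whereas Junb was at 123 CPM there and at 160.1 to 256 CPM in the others. Their score (the mean of log2 CPM minus each gene's mean over the 6 libraries) was 0.09 there, 0.15 in control 2, -0.40 in control 3 and between -0.04 and 0.16 in the cKO libraries. The part of these genes in the Atf3 value of control 1 was not tested.

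Cebpb (chromosome 2, 167688915 to 167690418) had 51.7, 198 and 127 CPM in the control libraries against 135, 150 and 152 CPM in the cKO libraries. The cKO libraries lay close together, inside the control range. The means were 125 ± 73.0 and 146 ± 9.04 CPM (SD, n = 3 each), and the log2 fold change was 0.22 (SE 0.40; edgeR adjusted p = 0.997). Leaving out control 1 gave -0.16, and leaving out control 2 gave 0.70. Cebpb shares 908 bases with Tmem189 on the opposite strand, so its count is uncertain to that extent.

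The order of the libraries by Cebpb was close to their order by the summed level of basal keratinocyte markers. The summed level of the 7 basal genes was 3354 CPM in control 1, 11588 CPM in control 2 and 5234 CPM in control 3, and it was 6284, 5408 and 7212 CPM in cKO 1 to 3. Both measures were lowest in control 1, next lowest in control 3 and highest in control 2. Fibroblast markers were arranged the other way in the controls, with 25370 CPM in control 1, 9655 CPM in control 2 and 15561 CPM in control 3, and at 20435 to 21657 CPM in the cKO. Most of the basal sum came from Krt5 and Krt14 (3624 and 4560 CPM in control 2), and not every basal gene followed its order. Krt15 had 445, 1375 and 730 CPM in the control libraries against 213, 247 and 374 CPM in the cKO libraries (log2 -1.61). Itga6 was lowest in cKO 2 (179 CPM). The part of cell composition in the values of Cebpb and Atf3 was not tested.

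Sesn2 and Ddit4 encode inhibitors of the growth kinase complex mTORC1. Sesn2 (chromosome 4, 132492032 to 132510501) had 24.1, 27.4 and 29.8 CPM in the control libraries against 35.3, 24.4 and 27.2 CPM in the cKO libraries. Only cKO 1 lay above the controls. Its fold change was 1.07 (95% interval 0.804 to 1.42), with an edgeR adjusted p of 0.997. Ddit4 (chromosome 10, 59949669 to 59951834) had 58.6, 47.8 and 53.5 CPM in the control libraries against 53.7, 81.7 and 40.3 CPM in the cKO libraries. Both extremes came from the cKO group, whose SD (21.1 CPM) exceeded that of the controls (5.37 CPM). Its fold change was 1.098 (95% interval 0.743 to 1.62), and the log2 value was -0.18 without cKO 2 and 0.34 without cKO 3.

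Ddit4 is also induced by glucocorticoids, and the score of 8 glucocorticoid-induced genes was highest in the same library, with 0.27 in cKO 2, and lowest in cKO 3 (-0.24). It was 0.04 in cKO 1 and between -0.13 and 0.075 in the controls. Tsc22d3, the glucocorticoid-induced leucine zipper gene, was at 584 CPM in cKO 2 and 277 CPM in cKO 3, and Per1, a clock gene with glucocorticoid response elements that was chosen after its values were seen, at 201 and 119 CPM. Klf9 was also highest in cKO 2 (181 CPM). The rest of the list was highest elsewhere: Fkbp5 and Mt2 in cKO 1 (127 and 8.75 CPM), Sgk1 and Mt1 in control 1 (219 and 184 CPM), and Zbtb16 in control 3 (47.8 CPM). Tsc22d3 and Klf9 were lowest in control 2 (252 and 84.5 CPM) and Per1 in cKO 1 (90.5 CPM). Of the list, only Fkbp5, Sgk1 and Zbtb16 were lowest in cKO 3. No gene of the list passed edgeR over all genes tested or had an unadjusted p under 0.05, and the median log2 fold change was -0.03. The part of hormone level or time of day in the values of Ddit4 was not tested.

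**Figure D3:**
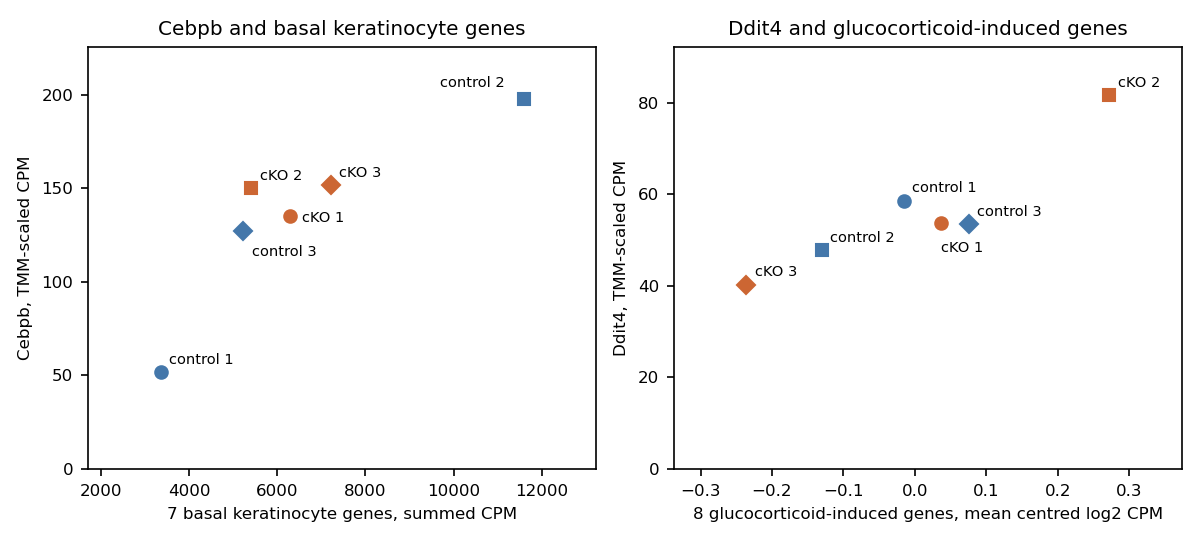
Left, Cebpb (TMM-scaled CPM) against the summed CPM of 7 basal keratinocyte genes, and right, Ddit4 (TMM-scaled CPM) against the score of 8 glucocorticoid-induced genes, with 1 labelled point per library. Control 1 is lowest and control 2 highest on both axes at left, and cKO 3 is lowest and cKO 2 highest on both axes at right.

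The 10 genes differed in how they varied between libraries. Over the 45 pairs of members, Pearson's r across the 6 libraries ranged from -0.73 (Atf3 and Cebpb) to 0.93 (Atf4 and Ddit3), with a median of 0.14 and 26 positive values. For Atf4 and Ddit3 the exact permutation p was 0.0125 for r and 0.0583 for Spearman's rho of 0.83. The Benjamini-Hochberg adjusted values were 0.562 and 1 over the 45 pairs. For this pair r was 0.83 without the 2 libraries farthest from the median of Atf4, and libraries were not left out by Ddit3. The same check by the median of Ddit3 took r of Ddit3 and Cebpb from 0.84 to -0.76. With so few libraries left, such a check cannot show that a correlation holds. Among the 10 genes cKO 1 held the highest value for 4 (Chac1, Ppp1r15a, Nupr1 and Sesn2), and control 1 the lowest for 4 (Atf4, Ddit3, Cebpb and Sesn2, the last below cKO 2 by a small margin). The mean score over the members was -0.10, -0.11 and -0.13 for the controls and 0.18, 0.15 and 0.01 for the cKO libraries. The median over the members was -0.18, -0.04 and -0.01 for the controls and 0.09, 0.17 and -0.04 for the cKO libraries. The groups were thus apart in the mean and overlapped in the median.

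Marker genes of some cell states also differed between the groups. The summed level of 7 stress keratin and alarmin genes was 219 to 246 CPM in controls and 439 to 1853 CPM in cKO, and that of 6 melanocyte genes 41.8 to 59.4 and 164 to 250 CPM. For 6 sebaceous gland genes the sums were 11006 to 13607 and 5871 to 9142 CPM, almost all of it from Scd1 (10712 to 12776 and 5583 to 8855 CPM), while Mc5r of the same list was higher in every cKO library than in any control (log2 0.48). The summed level of the stress keratin and alarmin genes was highest in cKO 1, the library with the highest Chac1, Ppp1r15a, Nupr1 and Sesn2. The 7 neutrophil genes, of which S100a8 and S100a9 are shared with that list, were at 6.70 to 79.0 CPM in controls and at 418 CPM in cKO 1, 44.1 CPM in cKO 2 and 69.7 CPM in cKO 3. Most of the sum in cKO 1 came from S100a8 and S100a9 (186 and 166 CPM). Csf3r, Cxcr2 and Mmp8 were also highest there (41.7, 19.95 and 1.56 CPM). Ly6g had 0 CPM in every cKO library and at most 0.0945 CPM in a control. The part of all these marker genes in the values of the 10 genes was not tested.

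For the members with the widest range between libraries, the genes with the most similar pattern were sought among 14260 protein-coding genes of at least 1 CPM, by the root mean square distance of log2 CPM around each gene's mean over the 6 libraries. The nearest of so many genes over 6 libraries lie far below the median distance by selection alone, so the distances only describe the patterns. For Chac1 the nearest were Vmn2r97 (distance 0.14), Eda2r (0.15) and Edn1 (0.16), next to a median distance of 0.54 over all genes searched. Edn1 encodes endothelin-1, which the title of the series names. For Cebpb they were Krt79 (0.04), Mvd (0.09) and Zfp524 (0.10), next to a median of 0.65. For Atf3 they were Gsto2 (0.24), Adora3 (0.25) and Plscr2 (0.27), next to a median of 0.73, and for Nupr1 they were Stab1 (0.11), Prss22 (0.11) and Slc16a12 (0.12), next to a median of 0.48.

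The genes upstream of ATF4 were compared through a list of the eIF2 kinases, eIF2, its exchange factor eIF2B and a phosphatase subunit. Of 13 genes 0 passed edgeR over all genes and 0 had an unadjusted p under 0.05, with a median log2 fold change of 0.09. Eif2ak3, which encodes PERK, the kinase that senses unfolded proteins in the ER, had 48.8, 41.2 and 60.8 CPM in the control libraries against 55.8, 59.2 and 52.2 CPM in the cKO libraries, a log2 fold change of 0.15 (SE 0.16). Eif2s1, the eIF2 subunit that is phosphorylated, had a log2 fold change of 0.23 (SE 0.14). Expression of these genes does not measure phosphorylation.

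Relatives and partners of the core transcription factors formed a list of 11 bZIP genes with a median log2 fold change of 0.00. Of these, 0 passed edgeR over all genes and 1 had an unadjusted p under 0.05, where 5.33% of all genes had. This was Atf5, a transcription factor that, like ATF4, is translated preferentially when eIF2 is phosphorylated. Atf5 had 86.7, 66.1 and 80.0 CPM in the control libraries against 106, 125 and 108 CPM in the cKO libraries. All cKO libraries were above all controls, with a log2 fold change of 0.54 (SE 0.14; unadjusted p = 0.00559, adjusted p = 0.650 in edgeR). Jdp2 was at 0.36 (SE 0.23), Fosl1 at -0.37 (SE 0.32) and Cebpa at -0.18 (SE 0.20).

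Genes that ATF4 activates, most of them amino acid transporters and enzymes, had values on both sides of 0. Of 22 genes 13 were positive, with a median log2 fold change of 0.26. In edgeR 0 passed over all genes, while 5 had an unadjusted p under 0.05 with higher values in the cKO, where 3.38% of all genes had, and 1 with lower values, where 1.95% had. Groups did not overlap for 7 genes in the higher direction (5.73% of all genes) and for 1 in the lower direction (4.81%). Aldh18a1, of proline synthesis, had 27.9, 25.9 and 24.1 CPM in the control libraries against 41.2, 36.2 and 37.2 CPM in the cKO libraries, a log2 fold change of 0.56 (SE 0.13; edgeR adjusted p = 0.612). Slc7a5, a transporter of large neutral amino acids, had 29.8, 44.9 and 40.6 CPM in the control libraries against 54.1, 62.7 and 69.0 CPM in the cKO libraries. Slc7a11, the cystine transporter subunit, had 4.95, 5.52 and 3.07 CPM in the control libraries against 16.4, 7.05 and 11.9 CPM in the cKO libraries, a log2 fold change of 1.38 (SE 0.36; edgeR adjusted p = 0.650). For these 3 genes all cKO libraries were above all controls. Asns, the asparagine synthetase gene often used as a readout of ATF4, was chosen after its values were seen, and had a log2 fold change of 0.21 (SE 0.22) with overlapping groups.

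Cytosolic aminoacyl-tRNA synthetase genes, which charge tRNAs with amino acids, were all positive (12 of 12, where 47.8% of all genes were) with small log2 fold changes between 0.03 and 0.29. None passed edgeR over all genes or had an unadjusted p under 0.05, and groups did not overlap for 6 in the higher direction, where 5.73% of all genes did not. Cars was at 0.29 (SE 0.15), Yars at 0.25 (SE 0.12), Mars at 0.25 (SE 0.15) and Eprs at 0.24 (SE 0.12).

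Targets of CHOP and genes of cell death were measured for 6 of 7 genes, with a median log2 fold change of 0.18. In edgeR 0 passed over all genes and 1, Pmaip1, had an unadjusted p under 0.05 with higher values in the cKO (3.38% of all genes). Groups did not overlap for 3 of the 6 genes in the higher direction, Pmaip1 among them (5.73% of all genes). Pmaip1, which encodes the pro-apoptotic protein NOXA, had 6.26, 5.88 and 5.62 CPM in the control libraries against 9.03, 6.72 and 10.9 CPM in the cKO libraries, a log2 fold change of 0.59 (SE 0.24; adjusted p = 0.907). Ero1l, an ER oxidase that CHOP induces, was at 0.31 (SE 0.14) and Tnfrsf10b, a death receptor gene, at 0.29 (SE 0.18), and the groups did not overlap for either. Bbc3, which encodes PUMA, was at -0.57 (SE 0.44) with overlapping groups.

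Targets of ATF6 and XBP1, the other arms of the ER stress response, had a higher median than the 10 genes. All 15 were positive, with a median log2 fold change of 0.74, next to 0.16 for the members. None passed edgeR over all genes, 11 had an unadjusted p under 0.05 with higher values in the cKO (3.38% of all genes), and groups did not overlap for 11 in that direction (5.73% of all genes). Of the 10 members 0 and 1 did so, and 1 of 10 is near the share of all genes. Hspa5, which encodes the ER chaperone BiP, had 343, 310.4 and 318 CPM in the control libraries against 727, 678 and 748 CPM in the cKO libraries, a log2 fold change of 1.15 (SE 0.15; edgeR adjusted p = 0.105). Pdia6, a disulfide isomerase of the ER, had 128, 142 and 142 CPM in the control libraries against 246, 218 and 260 CPM in the cKO libraries. Not all of the list differed to this extent. Herpud1, Dnajb9, Dnajc3 and Sel1l had overlapping groups, with log2 fold changes of 0.20, 0.07, 0.20 and 0.08. The score of these 15 genes was at most -0.36 in the controls and at least 0.33 in the cKO libraries. The difference between these targets and the members was not itself tested.

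**Figure D4:**
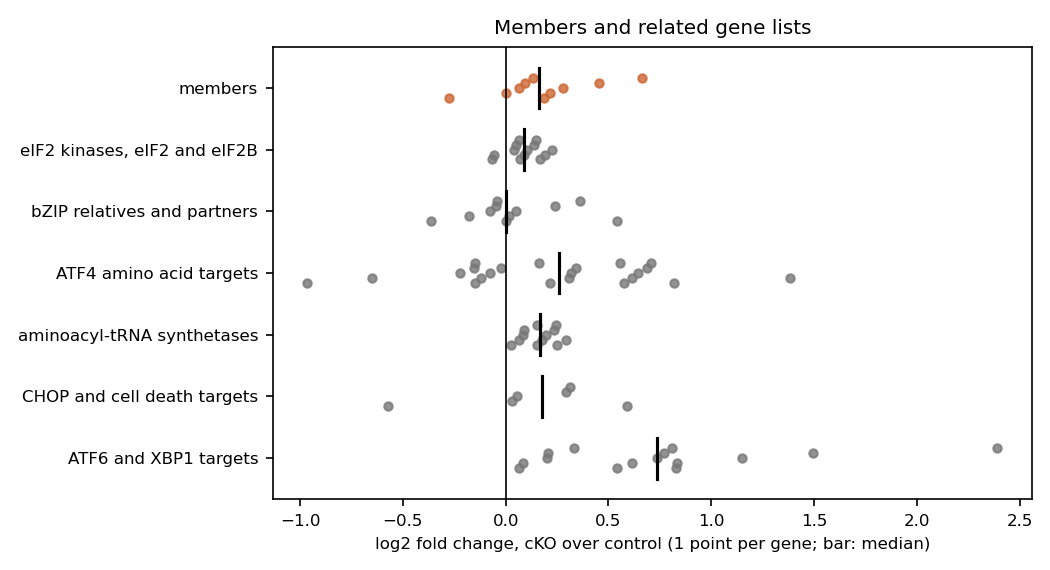
Log2 fold changes of cKO over control (horizontal axis), with 1 point per gene and a bar at the median, for the 10 members and 6 lists of related genes. The targets of ATF6 and XBP1 have a median of 0.74, while the medians of the members and the other lists lie between 0.00 and 0.26.

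Several members also respond to p53, to hypoxia or to cell stimulation, so these lists were compared too. Of 9 p53 targets, among them genes that arrest the cell cycle, 6 were positive with a median log2 fold change of 0.21. None passed edgeR over all genes. An unadjusted p under 0.05 with higher values in the cKO was found for 3 (Cdkn1a, Psrc1 and Zmat3), where 3.38% of all genes had one. The groups of these 3 did not overlap, where 5.73% of all genes did not in that direction. Sesn1, the paralogue of Sesn2 that p53 induces, was at -0.21 (SE 0.14). Of 9 hypoxia-induced genes 0 passed edgeR over all genes, with a median of -0.15. Egln3, an oxygen-sensing prolyl hydroxylase gene, was at 0.71 (SE 0.21; unadjusted p = 0.0104, adjusted p = 0.780) and Pdk1, which restrains entry of pyruvate into mitochondria, at -0.39 (SE 0.14; unadjusted p = 0.0259, adjusted p = 0.858), both in edgeR. Vegfa was at -0.16 (SE 0.16). Of the 12 immediate early genes 0 passed edgeR over all genes and 0 had an unadjusted p under 0.05, with a median of 0.06.

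In the authors' deposited table the 10 genes had log2 fold changes between -0.28 (Atf3) and 0.66 (Chac1), and each had an adjusted p of 0.9999. These values come from the same libraries and are not independent of those above.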

How the data were processed

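Libraries were prepared from TRIzol-extracted RNA with the NEBNext Ultra RNA kit, per the labels' protocols. The submitters' processing notes name HISAT2, HTSeq and mm10. The authors deposited raw whole-number counts, FPKM values, and log2 fold changes with p-values, per the file headers, without naming the test.

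Genes that passed filterByExpr (17318 of 54532, holding 99.83% to 99.86% of counts) were scaled by TMM and compared by edgeR 4.0.16 in R 4.3.3 (robust quasi-likelihood test without covariates). Adjustment over all of them followed Benjamini and Hochberg, with a threshold of 0.05. Intervals use the moderated degrees of freedom. Log2 CPM used a prior count of 2. DESeq2 1.42.0, limma-voom (limma 3.58.1), other scalings, no filter, a replicate block and leaving out each library were alternatives. The test was checked on simulated data.

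The members, the 10 related gene lists and the 13 marker lists were chosen with earlier results of these data known. Named genes are the members, Ufl1, some or all of the 4 genes with the smallest p in each list, and the 3 nearest genes of 4 members. Asns, Per1, Klf9, Fkbp5, Mt1, Fos, Scd1, Mc5r, Krt5, Krt14, Krt15 and Itga6 fall outside this rule and were chosen after their values were seen. The same holds for S100a8, Ly6g, Herpud1, Dnajb9, Dnajc3 and Sel1l. Mars, Cars and similar names are those of the table. Promoter sequences are from RefSeq (GRCm38.p6, the same build as mm10).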

Additional observations from a re-analysis of the deposited data

How the results depend on the processing

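None of the 10 members was called under any of the 12 alternatives (smallest adjusted p 0.425, Chac1 without control 1), and their median log2 fold change stayed between 0.13 and 0.20. The number of genes called over the whole table was 3, and it was 25 with every gene of at least 1 count, 91 in DESeq2, 0 in limma-voom (unadjusted p under 0.05: 564 higher, 327 lower) and 12 with the replicate number as a block. It lay between 0 and 4 when 1 library was left out. Members whose groups do not overlap numbered 1, 0 with total count scaling, and between 1 and 4 without 1 library (between 14.8% and 28.6% of all genes), all in the higher direction. Same-numbered libraries deviated together only for number 1 (correlations 0.22, -0.04 and -0.04). The labels do not say whether the numbers pair the libraries, and so few correlations cannot settle it. The block called 0 members, with a median of 0.14.

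Of 120 values of single members under alternatives, 107 kept their sign and 13 reversed. Trib3 was at -0.0173 with total count scaling, -0.0054 in limma-voom, -0.0006 with the replicate block, and from -0.11 to 0.086 without 1 library (-0.04 without control 1, -0.03 without control 2, -0.11 without cKO 2). Atf3 was at 0.0319 in limma-voom, and without 1 library between -0.64 and 0.61 (without control 1). On leaving out 1 library, Ppp1r15a lay between -0.0176 (without cKO 1; -0.0086 without control 1) and 0.19, Cebpb between -0.16 (without control 1) and 0.70, Sesn2 between -0.0706 (without cKO 1) and 0.20, and Ddit4 between -0.18 (without cKO 2) and 0.34. The causes were not tested. Chac1, with at most 121 counts per library, had the least depth.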
